A study of Mus musculus with 6 samples.

Results

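The BCL2 protein family decides whether a mitochondrion releases cytochrome c, and APAF1 turns that release into caspase activity. The genes described here are 10 named members of this machinery: the anti-apoptotic genes Bcl2, Bcl2l1 and Mcl1, the BH3-only genes Bcl2l11, Bmf, Bbc3 and Pmaip1, the effectors Bax and Bak1, and the apoptosome gene Apaf1. They were taken by symbol from a deposited table of 32801 genes; all 10 were found, and all 10 passed the filter on low values (3 or more libraries with a normalized count of 10 or higher), as did 16442 genes in all. The libraries, made from total RNA and sequenced, represent thymic regulatory T cells (Treg), the Foxp3-expressing CD4+ T cells that restrain immune responses. There were 3 libraries from NOD mice, an inbred strain that develops autoimmune diabetes, and 3 from C57BL/6 (B6) mice, all aged 3 weeks and untreated as far as the labels say. Both strains were sorted as GFP-negative CD4+CD8- Thy1.1+ cells; the promoters that drive GFP and Thy1.1 are left out of the labels. Foxp3 itself had between 1701 and 2446 normalized counts in every library. No library is tied to an animal in the labels, and the error behind each p-value is that among libraries, which could be technical.

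In living T cells, anti-apoptotic proteins hold the effectors BAX and BAK in check. BH3-only proteins, made or released under stress, cytokine loss or strong antigen receptor signals, bind the anti-apoptotic proteins through a short helix, the BH3 domain, and free the effectors to open the outer mitochondrial membrane. Cytochrome c then assembles APAF1 into the apoptosome, which activates caspase-9. In the Treg lineage BIM, the product of Bcl2l11, is known as a main brake on survival, and MCL1 as a protein the cells cannot do without. In thymocytes of NOD mice, weaker induction of Bim during negative selection has been described.

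The BH3 domain is what the family members share in sequence, and its core is shown here to make that kinship visible. Each coding sequence of the principal transcripts of GENCODE M21 (GRCm38) was translated and searched for leucine, any 3 residues, glycine or alanine, and aspartate. All 9 BCL2 family genes held the pattern; 8 are printed, and Pmaip1, with 2 matches, is named only. The stretch is 18 bases long, and the capitals mark the codons of the glycine or alanine and of the aspartate.
Bcl2 (chr1:106712584-106712601, minus strand): ctccgccgggctGGGGAT
Bcl2l1 (chr2:152829706-152829723, minus strand): ctgagagaggcaGGCGAT
Mcl1 (chr3:95659436-95659453, plus strand): ctgcggcgcgtgGGCGAC
Bcl2l11 (chr2:128147150-128147167, plus strand): ctgcggcggatcGGAGAC
Bmf (chr2:118545109-118545126, minus strand): cttcagtgtattGCAGAC
Bbc3 (chr7:16313773-16313790, plus strand): ctgcggcggatgGCGGAC
Bax (chr7:45466006-45466023, minus strand): ctccggcgaattGGAGAT
Bak1 (chr17:27022540-27022557, minus strand): cttgctctcatcGGAGAT
Bmf and Bbc3 carry an alanine codon at the first marked place, and the other 6 printed genes a glycine codon. The pattern is short: 12.5% of 11363 mouse genes with at most 400 codons held it, and 23.6% of all 21924 genes searched. Apaf1, with 1249 codons, held it too, though it has no BH3 domain. The values below are sums over all transcripts of a gene, so splice forms that differ in activity, such as the long and short forms made from Bcl2l1, Mcl1 and Bcl2l11, are not told apart.

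NOD library 10 stood apart from the other NOD libraries in its counts. A chi-square statistic per gene was 95.5 and 111 between it and NOD libraries 2 and 18, against 15.1 between those, 22.1 to 53.02 among the B6 libraries and 36.1 to 118 between strains. In log2 values it correlated more with the other NOD libraries (0.976 and 0.978) than with any B6 library (0.933 to 0.942). Each of the 4 called genes is also given without it.

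Of the 10 genes, Bcl2l11 and Mcl1 were higher in NOD Treg, and Bmf and Apaf1 were lower (limma, adjusted p below 0.05). Over all 16442 genes tested, 9.89% were called, 4.59% higher in NOD and 5.3% lower, which is the scale for these counts of 2 and 2 of 10. The median absolute log2 fold change was 0.27 for the 10 genes and 0.22 for all genes tested. The largest difference was in Bmf, about 8.08-fold. The other 6 genes did not pass the test, and for 4 of them (Bcl2, Bcl2l1, Pmaip1 and Bak1) the 95% interval of the log2 difference lay within 0.5 to either side of 0. Every value is a normalized count, a whole number made from the reads of a gene by the size factor scaling of the authors, and every fold change compares means of log2(normalized count + 1).

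**Figure D1:**
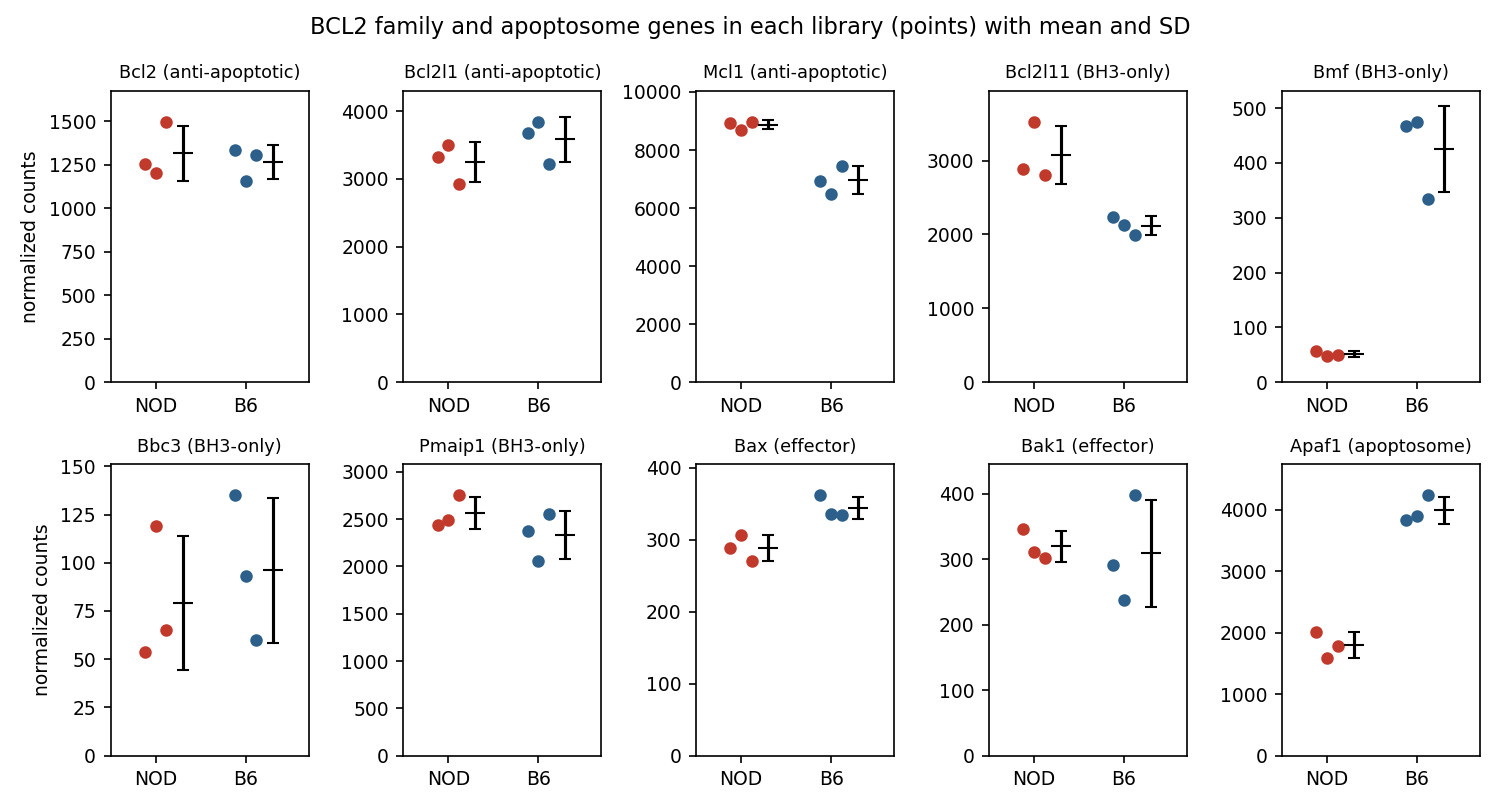
Normalized counts (vertical axes, from 0) of the 10 genes in each library, NOD in red and B6 in blue, with the mean and SD over 3 libraries in black. Bmf and Apaf1 stand below the B6 libraries in all 3 NOD libraries, and Bcl2l11 and Mcl1 above.

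Among the BH3-only genes, Bmf showed the largest strain difference. BMF is a BH3-only protein tied to the cytoskeleton, where it binds a dynein light chain, and is linked to death after loss of attachment and to lymphocyte homeostasis. Bmf (chromosome 2, 118528757 to 118549687, mm10) stood at 57, 48 and 49 normalized counts in NOD libraries 2, 10 and 18, against 467, 475 and 335 in B6 libraries 4, 12 and 20. The highest NOD library lay far under the lowest B6 library. The log2 fold change was -3.01 ± 0.20 (SE, 95% interval -3.45 to -2.58, limma adjusted p = 2.4e-06), and 0.839% of tested genes had a lower one. It kept its call in all 6 fits that left out a library (log2 fold change of -3.18 to -2.93, -2.97 without NOD library 10). Dendritic and myeloid markers, 10 genes of which 5 were tested and 2 (Cd74 and H2-Aa) called lower, summed to 443 to 580 in NOD and 957 to 1173 in B6, in the same direction as Bmf and Apaf1. Cd74, at 334, 315 and 406 normalized counts in NOD and 654, 746 and 792 in B6, made up most of each sum. Lyz2 had 3, 3 and 15 in NOD and 38, 13 and 33 in B6, overlapping and not called (limma adjusted p = 0.068). Adgre1 stood at 0, 0 and 2 in NOD and at 9, 9 and 22 in B6, below the filter on low values. Csf1r was tested and had 17, 15 and 19 in NOD and 14, 19 and 25 in B6 (limma adjusted p = 0.89). Itgax, Flt3 and Siglech, also below the filter, overlapped between strains. Xcr1 had 56 to 99 in NOD and 84 to 94 in B6, Clec9a was at 0 or 1 in every library, no gene of the list was at 0 in all 6, and the part of such cells in these results was not tested. In sorted bulk samples, fewer cells with a transcript and less of it per cell cannot be told apart.

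Bcl2l11, which encodes BIM, moved the other way. It lies on the same chromosome as Bmf, 9.58 Mb away (chromosome 2, 128126038 to 128162547). It stood at 2885, 3525 and 2805 normalized counts in the NOD libraries, against 2242, 2126 and 1991 in the B6 libraries. Every NOD library lay above every B6 library, and NOD library 10 stood highest. Without that library the log2 fold change was 0.43 (limma adjusted p = 0.024). With all libraries the log2 fold change was 0.53 ± 0.12 (SE, 95% interval 0.28 to 0.78, limma adjusted p = 0.012), and 10.2% of tested genes had a higher one. The call held in all 6 fits with a library left out, with adjusted p of 0.024 to 0.049.

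Bbc3 and Pmaip1 encode PUMA and NOXA, BH3-only proteins known as products of p53 target genes. PUMA binds all the main anti-apoptotic proteins, and NOXA binds MCL1 in preference. Pmaip1 had 2439, 2492 and 2751 normalized counts in NOD and 2370, 2059 and 2556 in B6, and the groups overlapped. The log2 fold change was 0.14, with a 95% interval of -0.11 to 0.39 (limma adjusted p = 0.57). Bbc3 had 54, 119 and 65 in NOD and 135, 93 and 60 in B6, and was the most variable of the 10 genes, with a coefficient of variation of 43.9% in NOD and 39.2% in B6. Its interval ran from -1.05 to 0.49, so that differences of this range could not be told from 0. The median coefficient of variation of the 10 genes was 9.36% in NOD and 8.32% in B6, against 15.1% in NOD and 15.7% in B6 over all tested genes.

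Apaf1 was the other gene that fell. APAF1 binds cytochrome c and forms the wheel-shaped platform on which caspase-9 is activated. Apaf1 (chromosome 10, 90989311 to 91082770) stood at 2015, 1594 and 1780 normalized counts in the NOD libraries, against 3830, 3902 and 4235 in the B6 libraries. All 3 NOD libraries lay below all 3 B6 libraries, with a gap wider than the range of either strain. The log2 fold change was -1.16 ± 0.11 (SE, 95% interval -1.40 to -0.91, limma adjusted p = 4.6e-05), a 2.23-fold difference, and 3.97% of tested genes had a lower one. It kept its call in all 6 fits with a library left out (log2 fold change of -1.24 to -1.07, -1.07 without NOD library 10).

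**Figure D2:**
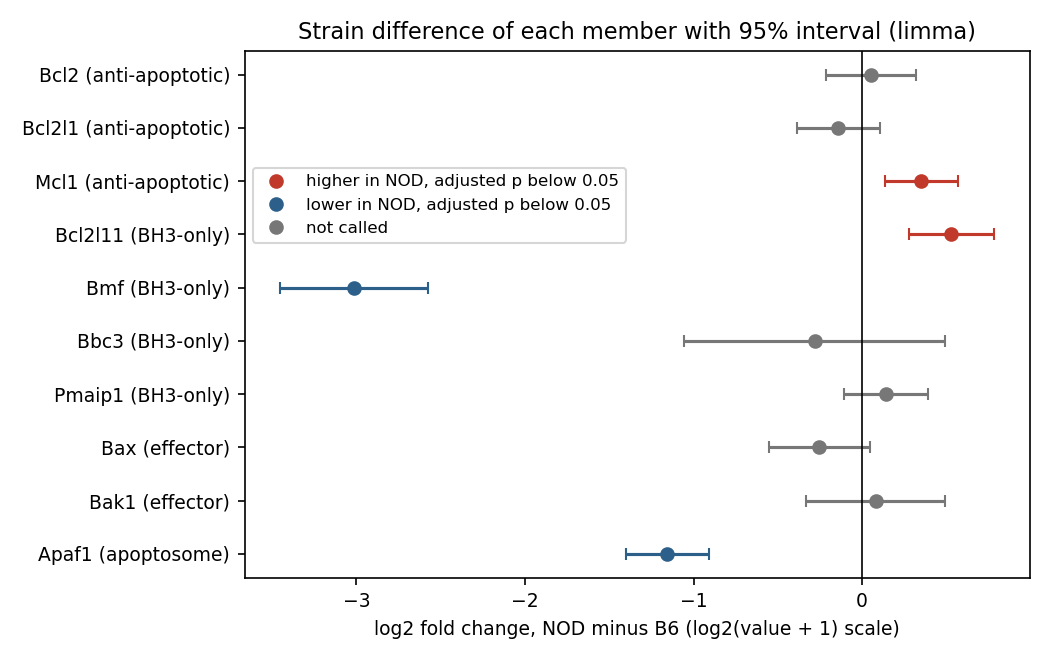
Log2 fold change of each gene, NOD minus B6, with limma's 95% interval (horizontal bars), ordered by role. Bmf at -3.01 and Apaf1 at -1.16 lie to the left of 0, Mcl1 at 0.35 and Bcl2l11 at 0.53 to the right, and the other 6 intervals include 0.

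Of the anti-apoptotic genes, Mcl1 alone passed the test. MCL1 is a short-lived protein that T cells need throughout life and that IL-2 signalling sustains in Treg. Mcl1 (chromosome 3, 95658788 to 95663176) stood at 8936, 8695 and 8974 normalized counts in the NOD libraries, against 6939, 6493 and 7447 in the B6 libraries. The groups did not overlap, and the NOD libraries lay close together. By absolute log2 fold change Mcl1 ranked 5542 of the 16442 genes tested. The log2 fold change was 0.35 ± 0.10 (SE, 95% interval 0.14 to 0.57, limma adjusted p = 0.045). This call did not survive the loss of NOD library 2 (adjusted p = 0.15), of NOD library 18 (0.15), of B6 library 4 (0.13) or of B6 library 12 (0.17). Without NOD library 10 it held (log2 fold change 0.37, adjusted p = 0.048), as it did without B6 library 20. It was lost without a filter on low values (adjusted p = 0.079) and with libraries scaled to equal totals (adjusted p = 0.064).

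Bcl2l1 encodes BCL-XL, the anti-apoptotic protein prominent in CD4+CD8+ thymocytes, and Bcl2 encodes the founding member of the family, which rises as thymocytes mature. Bcl2l1 had 3325, 3495 and 2919 normalized counts in NOD and 3684, 3843 and 3217 in B6. Its log2 fold change of -0.14 had a 95% interval of -0.39 to 0.11 (limma adjusted p = 0.57). Bcl2 had 1251, 1200 and 1496 normalized counts in NOD and 1333, 1156 and 1307 in B6. Its log2 fold change of 0.05 had a 95% interval of -0.21 to 0.32 (limma adjusted p = 0.88). For both genes the strains overlapped. A gene annotated antisense to Bcl2, D630008O14Rik, had 28 to 79 normalized counts per library, a small amount beside Bcl2, and whether reads were counted by strand is not stated.

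The effectors gave no call. BAX moves from the cytosol to mitochondria when activated, while BAK sits in the outer membrane. Bax had 288, 307 and 271 normalized counts in NOD and 362, 336 and 334 in B6. The NOD libraries all lay below the B6 libraries, but the log2 difference of -0.25 ± 0.14 (SE, 95% interval -0.55 to 0.05) did not pass the test (limma adjusted p = 0.35). Bak1 had 347, 311 and 302 in NOD and 291, 238 and 398 in B6, overlapping, and its log2 fold change of 0.08 had an interval of -0.33 to 0.49 (limma adjusted p = 0.88). With Bax counted, 3 of the 10 genes had every NOD library below every B6 library and 2 had every NOD library above. Over all tested genes 24.1% did not overlap, 11.9% with NOD below and 12.1% with NOD above. For each of the 5, an exact two-sided permutation test over libraries gave p = 0.1, the smallest it can give with 3 libraries per strain.

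The authors' deposited table holds their own DESeq2 comparison, and its log2 fold changes lay near those above. The columns fitted here come from that same table, so the likeness is no separate evidence. The mean it gives for each gene is not that of the 6 columns (for Bcl2 3135, against 1290). Which samples entered the authors' fit is therefore not known here, and its adjusted p-values are not on a par with those of limma. It gives -3.06 for Bmf (SE 0.24, adjusted p = 1.98e-33), -1.15 for Apaf1 (adjusted p = 7.6e-15) and 0.53 for Bcl2l11 (adjusted p = 0.0095). For Mcl1 the authors' deposited table gives 0.35 with an adjusted p of 0.094. For the other 6 genes the adjusted p in the authors' deposited table ran from 0.298 (Bax) to 0.931 (Bcl2).

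Levels can be compared between genes only per length, so the values were divided by the union of annotated exons of each gene in kilobases. On this scale Mcl1 was highest in both strains, at 2595 ± 44.3 normalized counts per kb in NOD and 2036 ± 139.7 in B6 (SD over 3 libraries of each strain). Pmaip1 (937 ± 61.1 in NOD and 852 ± 91.9 in B6) and Bcl2l1 (708 ± 64.5 in NOD and 781 ± 71.0 in B6) came next, and their libraries overlapped in B6. Their order turned round when the length of the longest transcript was used instead. In NOD, Bcl2l11 (383 ± 49.2) stood above Apaf1 (199 ± 23.4), while in B6 Apaf1 (442 ± 23.9) stood above Bcl2l11 (264 ± 15.6). Bax, Bcl2 and Bak1 followed in both strains between 128 and 218 normalized counts per kb on average, Bcl2 and Bak1 overlapping in each, and Apaf1 overlapping with Bax in NOD. Bmf was the lowest gene in NOD at 9.77 ± 0.94 per kb, against 81.0 ± 14.97 in B6, where Bbc3 was lowest at 45.2 ± 17.7.

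**Figure D3:**
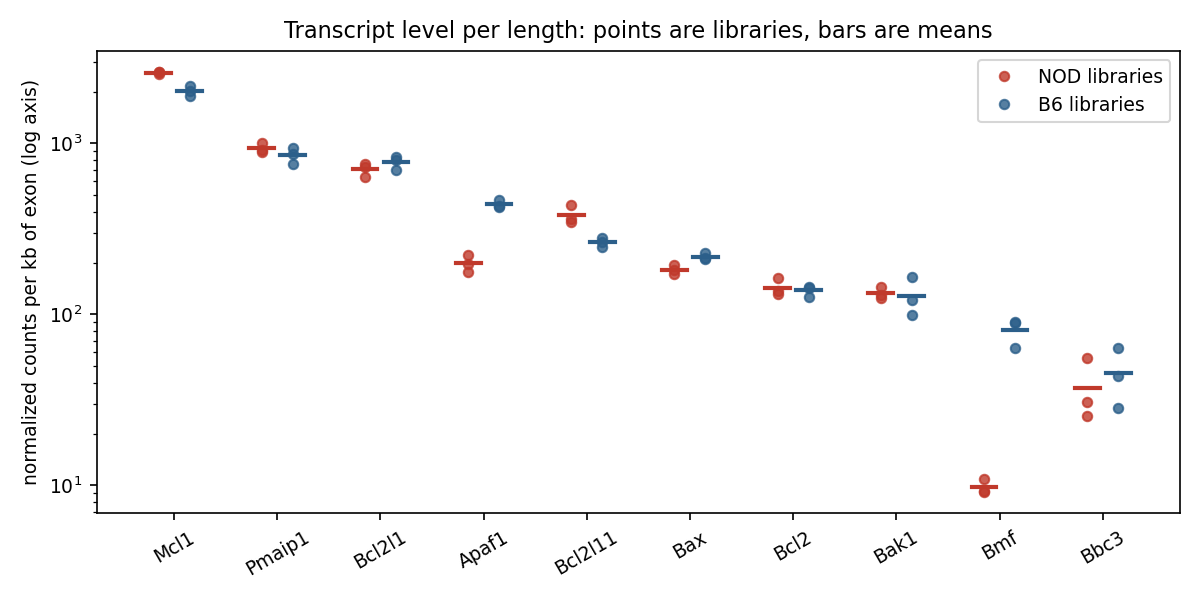
Normalized counts per kb of exon (log axis) for the 10 genes, ordered by their B6 mean, with NOD libraries in red to the left of B6 libraries in blue and bars at the means. Apaf1 and Bmf show the widest gaps between strains, and Mcl1 is highest in both.

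The make-up of each role followed from these levels. Summed per kb, the 3 anti-apoptotic genes gave 3425 to 3476 in the NOD libraries and 2864 to 3023 in the B6 libraries. Mcl1 made up 75.3% ± 1.3 of that sum in NOD and 68.9% ± 2.9 in B6 (SD), and Bcl2 4.17% ± 0.52 in NOD and 4.67% ± 0.24 in B6. The 4 BH3-only genes summed to 1288 to 1416 per kb in NOD and 1153 to 1299 in B6, and the strains overlapped. Pmaip1 held 68.6% ± 3.9 of that sum in NOD and 68.5% ± 4.3 in B6. Bcl2l11 held 28.0% ± 3.0 in NOD and 21.3% ± 1.8 in B6, and Bmf 0.718% ± 0.108 in NOD and 6.56% ± 1.44 in B6. These shares describe RNA and depend on the lengths used.

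Within a library, ratios between genes do not depend on how libraries were scaled. The log2 ratio of Bmf to Bcl2l11, per length, was -5.05, -5.59 and -5.23 in the NOD libraries, against -1.65, -1.55 and -1.96 in the B6 libraries. The mean difference between strains in this log2 ratio was -3.57. The log2 ratio of Bcl2l11 to Bcl2 was 1.40, 1.74 and 1.10 in NOD and 0.94, 1.07 and 0.80 in B6, without overlap. That of Bcl2l11 to Mcl1 averaged -2.77 ± 0.20 in NOD and -2.95 ± 0.16 in B6 (SD), and the strains overlapped; both genes were higher in NOD. The log2 ratio of Apaf1 to Casp9, its caspase partner in the apoptosome, was 2.66, 2.52 and 2.74 in NOD and 3.75, 4.504 and 3.93 in B6, again without overlap. Bax to Bcl2 averaged 0.36 ± 0.26 in NOD and 0.66 ± 0.09 in B6, and Bak1 to Bax -0.46 ± 0.13 in NOD and -0.80 ± 0.39 in B6, with overlap in both cases.

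The promoters of the 3 genes whose calls held without any single library are shown because the strains differ in their transcripts; the sequence is that of the B6-derived reference, and NOD sequence was not analysed here. Each runs from 250 bases before to 50 after the RefSeq start nearest to the gene's annotated start (RefSeq, GRCm38.p6), and capitals mark matches, on either strand, to TGTTTAC (a FOXO motif) and GGGCGG (an SP1 motif).
Bmf (chr2:118549637-118549936, minus strand): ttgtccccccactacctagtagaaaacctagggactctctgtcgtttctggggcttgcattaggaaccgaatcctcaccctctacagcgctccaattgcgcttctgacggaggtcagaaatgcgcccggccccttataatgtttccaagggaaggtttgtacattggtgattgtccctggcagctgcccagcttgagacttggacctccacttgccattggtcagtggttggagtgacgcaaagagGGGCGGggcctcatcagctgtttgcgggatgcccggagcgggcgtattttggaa
Bcl2l11 (chr2:128125788-128126087, plus strand): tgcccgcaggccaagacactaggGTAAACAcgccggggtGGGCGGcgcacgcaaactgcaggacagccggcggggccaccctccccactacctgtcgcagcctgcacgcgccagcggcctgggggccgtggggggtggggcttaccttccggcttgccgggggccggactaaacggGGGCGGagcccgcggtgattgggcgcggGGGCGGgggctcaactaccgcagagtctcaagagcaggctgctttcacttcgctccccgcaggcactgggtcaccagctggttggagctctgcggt
Apaf1 (chr10:91082694-91082993, minus strand): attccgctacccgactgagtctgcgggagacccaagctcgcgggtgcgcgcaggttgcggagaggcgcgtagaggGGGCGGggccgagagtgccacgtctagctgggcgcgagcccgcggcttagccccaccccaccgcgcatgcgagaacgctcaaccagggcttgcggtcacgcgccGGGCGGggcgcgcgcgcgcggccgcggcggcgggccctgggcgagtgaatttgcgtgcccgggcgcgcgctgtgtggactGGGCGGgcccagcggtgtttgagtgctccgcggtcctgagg
RefSeq promoters were at hand for 9 of the 10 genes. The FOXO motif was found in that of Bcl2l11 alone, as GTAAACA on the printed strand, and 3.65% of 32851 mouse promoters of the same length hold it. FOXO factors are known to raise Bcl2l11 and Bbc3 when growth factor signals fall. The SP1 motif was found in 7 of the 9, including the 3 shown, against 35.7% of all promoters. That motif holds only G and C. The 9 promoters had a GC content of 52.3% to 76%, against a median of 52.7% over all promoters. No background of like GC content was used. The searches for TTCNNNGAA (STAT), CACGTG (E-box), TGACGTCA (CRE), TTTCGCGC (E2F), the NF-kB consensus and the full p53 site gave no match in these 3 promoters, and such matches are held by 8.3%, 7.15%, 1.79%, 0.323%, 8.46% and 0.00913% of all promoters. The STAT, E-box, CRE and full p53 searches read the same on both strands, and no FOXO match overlapped an SP1 match. The Apaf1 promoter held 46 CG pairs, that of Bcl2l11 27 and that of Bmf 13, against a median of 7.

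The genes around the called members show whether a whole stretch of chromosome differed with them. Within 1 Mb of the start of Apaf1, 5 other genes were tested, of which limma called 0. All 5 lay upstream, from Tmpo at -98.5 kb to Ikbip. The rest of that window held no other tested gene, so nothing is known of it here. Counted at an unadjusted p below 0.05, which 20.3% of all tested genes reached, there were 0 of 5 around Apaf1, 5 of 23 around Bmf, 9 of 26 around Bcl2l11 and 8 of 78 around Mcl1. The genes near Apaf1 include Ikbip, which starts at -0.17 kb from Apaf1 on the opposite strand and averaged 45.3 ± 10.02 in NOD and 53 ± 19.7 in B6 (limma adjusted p = 0.84). Over all tested genes 4.59% were called higher and 5.3% lower, which is the scale for calls among neighbours. Around Bmf, 23 genes were tested, of which 2 were higher and 1 lower. Plcb2, a phospholipase C gene at -179 kb (upstream), rose to 881 ± 48.7 in NOD, against 376 ± 39.3 in B6 (log2 fold change 1.23 ± 0.13, limma adjusted p = 7.2e-05), and held this call in all 6 fits with a library left out. Pak6 rose as well (1.39 ± 0.32) and Ivd fell (-0.54 ± 0.14), but Pak6 lost its call without NOD library 2, NOD library 10 or B6 library 12 (limma adjusted p of 0.055 to 0.079), and Ivd in every such fit but that without NOD library 2 (0.054 to 0.10). The nearest tested genes on either side, Bub1b and Srp14, did not pass the test (log2 differences of -0.45 and -0.08). Around Bcl2l11, 1 of 26 genes was higher and 1 lower, and around Mcl1, 2 of 78 were higher and 2 lower. Near Bcl2l11 these were Gm14005 (log2 fold change 1.16 ± 0.28, limma adjusted p = 0.021) and Mrps5 (-0.60 ± 0.16). Near Mcl1 they were Gm42743 (3.06 ± 0.58), Tmod4 (1.93 ± 0.28), Ctsk (-4.48 ± 0.68) and Plekho1 (-1.65 ± 0.34). Gm42743 and Ctsk had few counts in 1 of the strains. Fits with a library left out were not read for these neighbours.

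**Figure D4:**
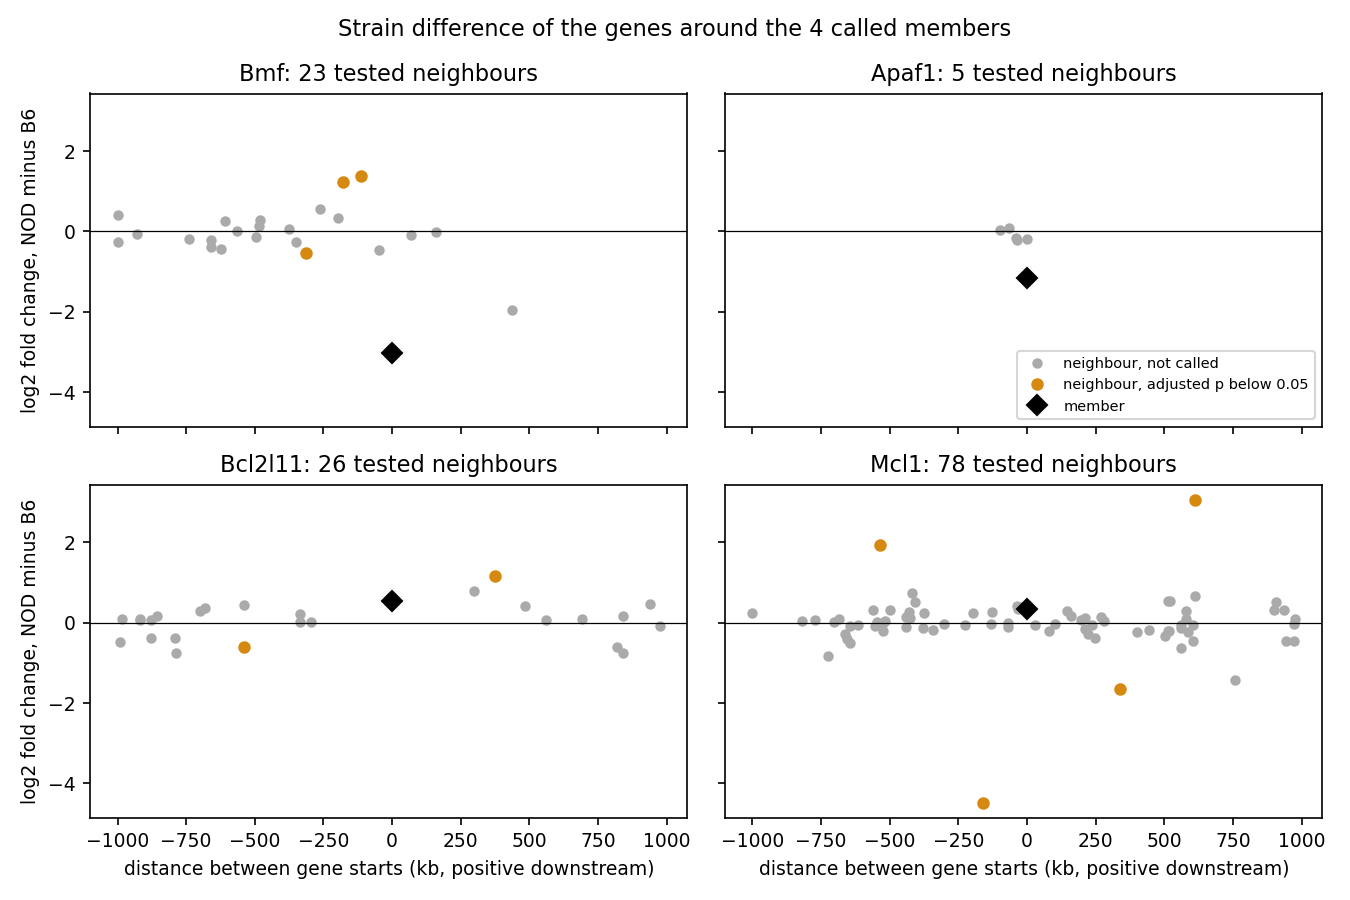
Log2 fold change, NOD minus B6, of the tested genes within 1 Mb of 4 members (axis in kb), against the distance between gene starts (positive is downstream of the member). The member is the black diamond, called neighbours are orange and other neighbours grey; Bmf and Apaf1 lie below all of their tested neighbours.

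The other genes of the death pathways were taken from 9 lists holding 95 genes, of which 90 were tested. Of these, 4 were higher (4.44%) and 6 lower (6.67%) in NOD, close to the shares of 4.59% and 5.3% over all genes, and the median log2 fold change was -0.02, against 0.01 over all genes. Of 13 genes of the apoptosome and its caspases, 1 rose and 0 fell. Dffa, the inhibitor and chaperone of the nuclease that cuts DNA in dying cells, rose to 615, 540 and 545 normalized counts in NOD, against 333, 255 and 339 in B6 (log2 fold change 0.88 ± 0.15, limma adjusted p = 0.0026). The direct partners of APAF1 did not pass the test: Casp9 averaged 165 ± 15.7 in NOD and 141 ± 36.4 in B6, and Cycs, which encodes cytochrome c, 1538 ± 22.5 in NOD and 1434 ± 167.5 in B6. Diablo, which encodes an antagonist of the inhibitor of apoptosis proteins, averaged 232 ± 22.7 in NOD and 235 ± 9.5 in B6.

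**Figure D5:**
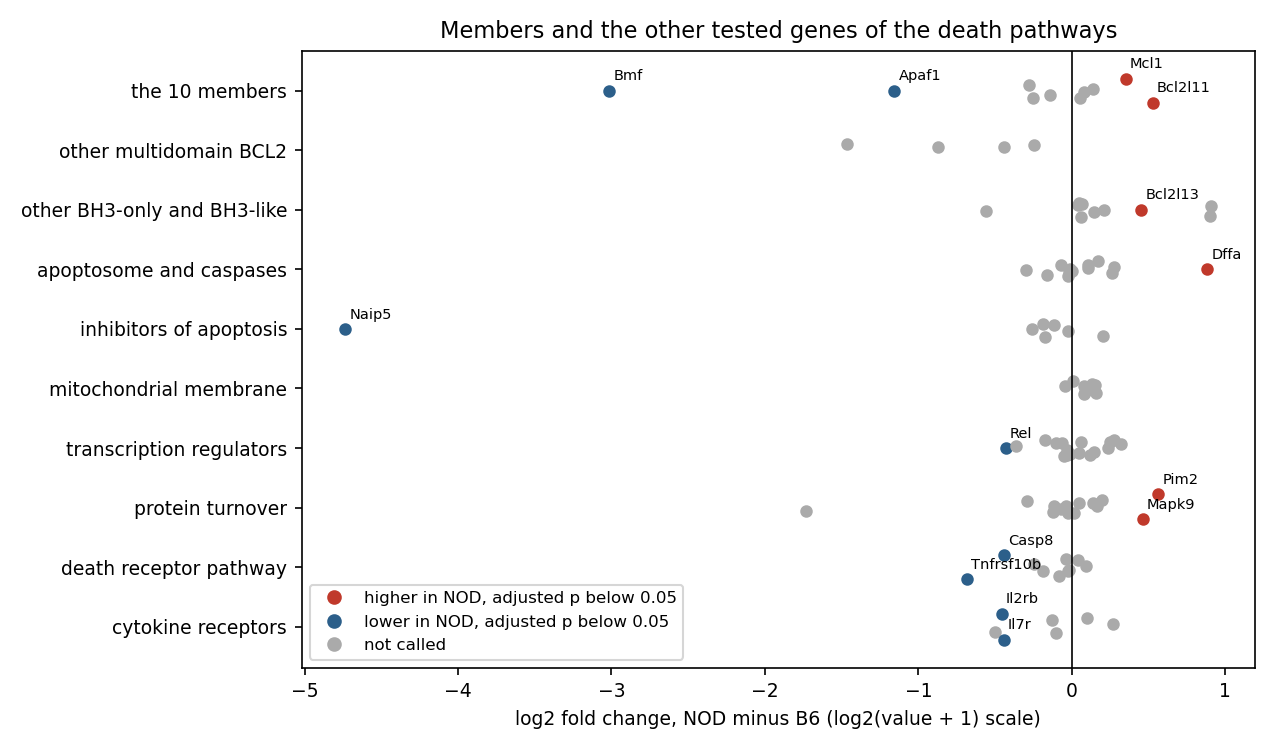
Log2 fold change, NOD minus B6, of the 10 members and of 90 further tested genes, a row per list, with called genes named. Apart from Naip5, Bmf and Apaf1, the called genes lie within 1 log2 unit of 0.

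Among relatives of the family, a list of further BH3-only genes and other relatives had 10 tested genes. Bcl2l13, a mitochondrial protein linked to removal of mitochondria by autophagy, was its only call. It had a mean of 1373 ± 73.9 in NOD, against 1007 ± 116.6 in B6 (log2 fold change 0.45 ± 0.12, limma adjusted p = 0.033). At an unadjusted p below 0.05, which 20.3% of all tested genes reached, there were 4 of the 10. Besides Bcl2l13 these were Bnip3, at 86, 64 and 69 in NOD and 36, 30 and 51 in B6 (log2 fold change 0.91 ± 0.28, limma adjusted p = 0.074), Bcl2l15 (0.90 ± 0.29, limma adjusted p = 0.084) and Bcl2l14 (-0.56 ± 0.23, limma adjusted p = 0.21). For each of these the strains did not overlap, as held for 24.1% of all tested genes. Bid, which links death receptors to mitochondria, had 246 ± 22.2 in NOD and 240 ± 29.1 in B6 (limma adjusted p = 0.93). Of 4 tested genes listed as other multidomain genes, a list without Bcl2l13, limma called 0, and 2 had an unadjusted p below 0.05. These were Bcl2l2, which encodes BCL-W, at 54, 39 and 67 in NOD and 96, 83 and 111 in B6 (limma adjusted p = 0.065), and Bok (0.17). The Bcl2a1 copies share near-identical sequence, so their reads could be split between them. Of 8 mitochondrial membrane genes such as Vdac2 and Opa1, limma called 0, and 0 had an unadjusted p below 0.05. Of 7 inhibitor of apoptosis genes, 1 fell: Naip5 averaged 9.33 ± 1.53 in NOD, against 273 ± 29.3 in B6 (log2 fold change -4.74 ± 0.26, limma adjusted p = 5.2e-07). NAIP5 is known as a sensor of bacterial flagellin, and reads of the Naip paralogs could be shared. Xiap, the direct caspase inhibitor, averaged 2816 ± 529 in NOD and 2856 ± 437.8 in B6.

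Upstream, 1 of 17 tested transcription regulators was called. Rel, an NF-kB subunit, fell (log2 fold change -0.43 ± 0.12, limma adjusted p = 0.046). Trp53 (-0.10 ± 0.17), Foxo3 (0.06 ± 0.10), Foxo1 (0.28 ± 0.13) and Foxp3 (-0.03 ± 0.15) did not pass. Of 14 genes acting on the stability or binding of the proteins, Pim2, a kinase that phosphorylates BAD (0.56 ± 0.13, limma adjusted p = 0.019), and Mapk9, which encodes the kinase JNK2 (0.46 ± 0.12), rose. Of 10 death receptor genes, Tnfrsf10b, the mouse TRAIL receptor (-0.68 ± 0.16, limma adjusted p = 0.019), and Casp8, the initiator caspase (-0.44 ± 0.11), fell, while Fas, which encodes the receptor of FAS ligand, averaged 1223 ± 186.2 in NOD and 1254 ± 150.5 in B6. Of 7 genes of cytokine receptors and their kinases, Il2rb (-0.46 ± 0.11) and Il7r (-0.44 ± 0.11) fell, and Il2ra did not pass (-0.13 ± 0.17).

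Of these 10 calls, those of Dffa and Naip5 held in all 6 fits with a library left out, and the other 8 were lost in 3 or more. Rel held only without B6 library 20 (adjusted p of 0.062 to 0.19 in the others) and Bcl2l13 only without NOD library 10 (0.051 to 0.15 in the others). Without NOD library 18 all of these 8 were lost (adjusted p of 0.091 to 0.19). Further losses were Tnfrsf10b, Casp8 and Il2rb without NOD library 2 (0.063, 0.055 and 0.097), Casp8, Mapk9, Pim2, Il2rb and Il7r without B6 library 4 (0.087, 0.10, 0.063, 0.067 and 0.11), Tnfrsf10b, Mapk9, Pim2 and Il2rb without B6 library 12 (0.085, 0.10, 0.075 and 0.11), and Casp8 and Il7r without B6 library 20 (0.073 and 0.070). The lists held 1 to 5 higher and 1 to 7 lower genes over these fits.

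Per library, normalized counts summed to between 16097369 and 17625903. Of 8 Treg and T cell markers, 1 (Cd3e) was called higher, and their sum was 151320 to 163811 in NOD and 142656 to 158254 in B6. Markers of CD4+CD8+ thymocytes (10 genes, Cd8a higher, Rag1 lower) summed to 2447 to 2970 in NOD and 2193 to 2458 in B6. Cd1d1 and Themis, neither called, made up most of each sum. Of the 8 tested, 4 had an unadjusted p below 0.05, which 20.3% of all tested genes reached. Cd8a was higher (log2 fold change 2.31 ± 0.46). Rag1 (-1.07 ± 0.25), Dntt (-1.20 ± 0.40, limma adjusted p = 0.095) and Arpp21 (-1.21 ± 0.49, limma adjusted p = 0.18) were lower. The part of such cells was not tested. Of the markers of B cells, of innate-like cells and of epithelial and red blood cells, limma called 0, with 1, 1 and 0 at an unadjusted p below 0.05. The B cell gene was Ebf1 (log2 fold change -1.19 ± 0.36, limma adjusted p = 0.064). The innate-like gene was Eomes, at 76, 21 and 59 in NOD and 17, 16 and 6 in B6. Eomes did not overlap between strains and fell just short of a call (1.86 ± 0.53, limma adjusted p = 0.0501). The 7 B cell markers summed to 151 to 210 in NOD and 179 to 224 in B6, the 6 of innate-like cells to 76 to 177 in NOD and 78 to 85 in B6, and the 6 of epithelial and red blood cells to 168 to 245 in NOD and 244 to 314 in B6.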

How the data were processed

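RNA of sorted thymic Treg was sequenced from 3 NOD and 3 B6 libraries. Trimmomatic, STAR, DESeq2 and the mm10 build are listed, with no version or order, in the submitters' processing notes; how reads were assigned to genes, with which annotation and by which strand rule, is not given in the sources available. The deposited table holds scores, namely read counts that the authors divided by size factors and rounded to whole numbers (per the file headers), besides the authors' log2 fold changes with standard errors, their p-values and adjusted p-values, and a mean and a test statistic as further scores. Columns were matched to strain by name; their numbers are not the replicate numbers of the labels. Per-sample columns left unused numbered 0.

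Genes that reached 10 normalized counts in 3 or more libraries (2 when a library was left out) were fitted with limma 3.58.1 (R 4.3.3) on log2(value + 1), strain as the only term, empirical Bayes with a trend, two-sided, Benjamini-Hochberg over all genes, called at an adjusted p below 0.05. The fit was tested on simulated data. The chi-square per gene, taken on normalized counts, was 15.1 to 111 between libraries of 1 strain. Raw depth is not given, so its size under sampling noise alone is not known and no counting interval is printed. GENCODE M21 (GRCm38, the assembly called mm10) gave coordinates and exon lengths. The mm10 genome is that of B6, and differences between strains in how reads align to it were not tested. Alternatives were another pseudocount, filter, scaling or moderation, leaving out each library and, added after seeing the data, a block on neighbouring column numbers. The members, the lists and the rule for named genes (all members; of each list the called genes, at most 4 each way, and fixed pathway genes, of which 1 is not reported here) were chosen with earlier results of these data known; the neighbours, the promoters, further list members that did not pass and the shared BH3 pattern were added later.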

Additional observations from a re-analysis of the deposited data

How the results depend on the processing

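The planned fit with a replicate block was not run, because the columns carry numbers other than the replicate numbers of the labels. Neighbouring column numbers (2 and 4, 10 and 12, 18 and 20) could also mark sets, and a block on them was added after seeing the data. Deviations from the strain means correlated at 0.0072, 0.18 and 0.13 across genes within these sets. Libraries 10 and 12, and 18 and 20, correlated best within their set, while libraries 2 and 4 correlated best outside theirs (0.098 and 0.028). Whether the numbers pair the samples was therefore not settled, and the fit with this block is given as an alternative. With this block all 4 member calls held (2 higher, 2 lower; Mcl1 adjusted p = 0.019), calls over all genes numbered 2027, against 1626, with 1615 shared, and pathway genes 4 higher and 8 lower, with 1 multidomain gene and 2 transcription regulators. With 7 other settings (pseudocount 0.5 or 5, 2 other filters, 2 scalings, robust moderation), Bmf, Apaf1 and Bcl2l11 kept their calls and the 6 uncalled members kept their direction. Mcl1 lost its call without a filter on low values (log2 fold change 0.35) and with equal totals (0.31), leaving 1 member higher in each; the cause was not tested. The call of the transcription regulator list fell to 0 under those settings and under upper quartile scaling. Pak6 has no value under the filter of 50. With each library left out, the log2 fold changes ran from 0.30 to 0.40 for Mcl1, -0.044 to 0.12 for Bcl2, -0.61 to 0.0016 for Bbc3 and -0.091 to 0.28 for Bak1, the last 3 changing sign. Members called higher numbered 1 to 2 and lower 2 throughout. Pathway genes called numbered 1 to 5 higher and 1 to 7 lower, and by list 0 to 1 (BH3-like), 0 to 2 (transcription regulators, death receptors and cytokine receptors) and 0 to 3 (protein turnover). With the longest transcript as the length, log2 ratios became 1.74 in NOD and 1.26 in B6 for Bcl2l11 to Bcl2, -2.10 in NOD and -2.27 in B6 for Bcl2l11 to Mcl1, -5.78 in NOD and -2.21 in B6 for Bmf to Bcl2l11, -0.97 in NOD and -1.30 in B6 for Bak1 to Bax, and 0.83 in B6 for Bax to Bcl2; differences between strains do not depend on length. Rounding to whole numbers limits genes of a few counts; the 10 members had at least 48.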

Other observations

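The mean that the authors' deposited table gives for each gene is not the mean of the 6 columns, and the 10 genes differ in how far the 2 depart. For Bcl2 the authors' deposited table gives a mean of 3135, against 1290 over the 6 columns, a ratio of 2.43 that 98.6% of tested genes fall below. Bcl2l1 has the reverse, with 1877 in the authors' deposited table against 3414, a ratio of 0.55, and Apaf1 and Bmf likewise, with ratios of 0.586 and 0.688. Mcl1 (1.43) and Bbc3 (1.52) lie above 1, and the median ratio over all tested genes is 1.004, with a range of 0.591 to 1.76 from the 5th to the 95th percentile. The samples behind that mean are not described in the sources used here.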
